A study of Mus musculus with 6 samples.

Results

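Nitric oxide synthesis and signalling was followed through 10 genes in kidney endothelial preparations of 6 mice. Of these, 3 carried a Cre-dependent nuclease gene with an endothelial Cre and 3 were controls. DNA breaks were not measured here. The 10 genes were taken by symbol from the deposited matrix of 55487 genes, and each had 1 row. They were the synthase Nos3, the cofactor enzyme Gch1, the synthase inhibitor Cav1, the methylarginine hydrolases Ddah1 and Ddah2, the arginase Arg2, the guanylate cyclase subunits Gucy1a1 and Gucy1b1, and the transcription factors Klf2 and Klf4. In the I-PpoI group, 3 mice carried VE-cadherin Cre with a Cre-dependent gene for I-PpoI, an endonuclease that makes double-strand DNA breaks, which the genotype labels give as ROSA26-STOP-I-PpoI, ROSA27-STOP-I-PpoI and ROSA28-STOP-I-PpoI for mice 1, 2 and 3. The number in these labels goes up with the mouse number, and whether it stands for different alleles is not known here. The control group was 3 wild-type littermates. All 6 mice started a high-fat diet (60% of kcal as fat) when 8 weeks old, ate it for 4 weeks, and carry the same batch label. VE-cadherin (Cdh5) is made by endothelial cells throughout the body, so that the expression of the nuclease is not limited to the kidney by its driver. The cells came from whole digested kidneys by magnetic sorting with a CD31 (Pecam1) antibody.

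Endothelial nitric oxide synthase makes nitric oxide from arginine and needs tetrahydrobiopterin, whose synthesis starts with GTP cyclohydrolase (Gch1). Caveolin-1 binds the synthase and holds it inactive, asymmetric dimethylarginine competes with arginine at its active site until the DDAH enzymes degrade it, and arginase consumes arginine. Nitric oxide then diffuses to soluble guanylate cyclase, a dimer of an alpha and a beta subunit found mainly in smooth muscle cells and pericytes, which makes cyclic GMP. Klf2 and Klf4 are induced by laminar flow and raise Nos3 transcription in endothelium.

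The labelled cell type was described with 20 endothelial genes. Their summed FPKM was 1060 to 2664 in I-PpoI and 3762 to 4138 in control libraries. All were above 0 in every library, as were nearly all markers of other cell types, so that this does not tell cell types apart. In I-PpoI mouse 3 the endothelial sum was 1821, against 1844 for 15 proximal tubule markers (845 without Aqp1 and Kap). In every other library the endothelial sum was the higher. FPKM divides a gene's fragments by its length and by the library's total, so that levels can be compared between genes. Whole fragments recovered from FPKM and exon length totalled 1590957, 834149 and 13324303 in I-PpoI mice 1, 2 and 3, against 14081222 to 16954480 in controls. I-PpoI libraries 1 and 2 stood apart from the rest, with 14.7% and 10.02% of fragments in antisense gene models, against 0.119% in I-PpoI library 3 and 0.197 to 0.225% in controls. Mitochondrial genes took 6.42%, 38.2% and 48.2% of fragments in the I-PpoI libraries, against 8.83 to 18.3% in controls. Other marker lists had summed FPKM of 149 to 429 in I-PpoI and 661 to 1360 in control libraries for podocytes (5 genes), 113 to 162 and 198 to 266 for the distal nephron (8), 108 to 159.9 and 196 to 251 for renin lineage and mesangial cells (5), and 89.4 to 248 and 30.5 to 212 for macrophages (8). The Y-linked Ddx3y had 20, 0 and 0 fragments in the I-PpoI libraries, against 959 to 1672 in controls, and Xist had 0, 70 and 4739, against 0 to 4 in controls. I-PpoI library 1 held Ddx3y and no Xist, which in kind is the pattern of the controls. Its Ddx3y was low for its depth, at 20 of 1590957 fragments, against 959 of 14081222 in control 2, the lowest control. I-PpoI libraries 2 and 3 held Xist and no Ddx3y, so that for libraries 2 and 3 genotype and sex-linked transcripts cannot be told apart. Results are therefore given as deposited, after scaling each library by the median of its gene ratios, and for I-PpoI mouse 3 alone, a single library whose spread is taken to equal that of the controls.

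None of the 10 genes passed the threshold of an adjusted p of 0.05 (limma on log2(FPKM + 1), adjusted over the 14962 genes whose mean reached 1 FPKM), where 0% of all genes tested passed. In such bulk preparations fewer cells of a type and less RNA per cell cannot be told apart. At an unadjusted p under 0.05, 4 of the 10 were lower and 1 was higher, against 32.2% of all genes lower (4824) and 4.23% higher (633). The groups did not overlap, with I-PpoI lower, for 5 of the 10 genes, against 45.1% of all genes, and with I-PpoI higher for 1, against 2.24%. Below 0 were 8 of the 10 fold changes, with a median of -1.05, against 71.6% and a median of -0.65 over all genes tested. Scaling moved the median of all genes to 0.02 and that of the 10 genes to -0.26, and turned the unadjusted split to 814 higher (5.44%) and 429 lower (2.87%) over all genes and 1 higher and 1 lower among the 10. Below 0 after scaling were again 8 of the 10, against 49.2% of all genes. After scaling, Cav1 was the gene whose I-PpoI values all lay below control, against 9.76% of all genes, and Arg2 the gene whose values all lay above, against 7.65%. A limma-voom fit of the recovered fragments likewise called 0 of the 10 genes, where 0% of all genes were called. At an unadjusted p under 0.05 it had 1 of the 10 higher and 1 lower, against 2.5% and 1.04% of all genes.

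**Figure D1:**
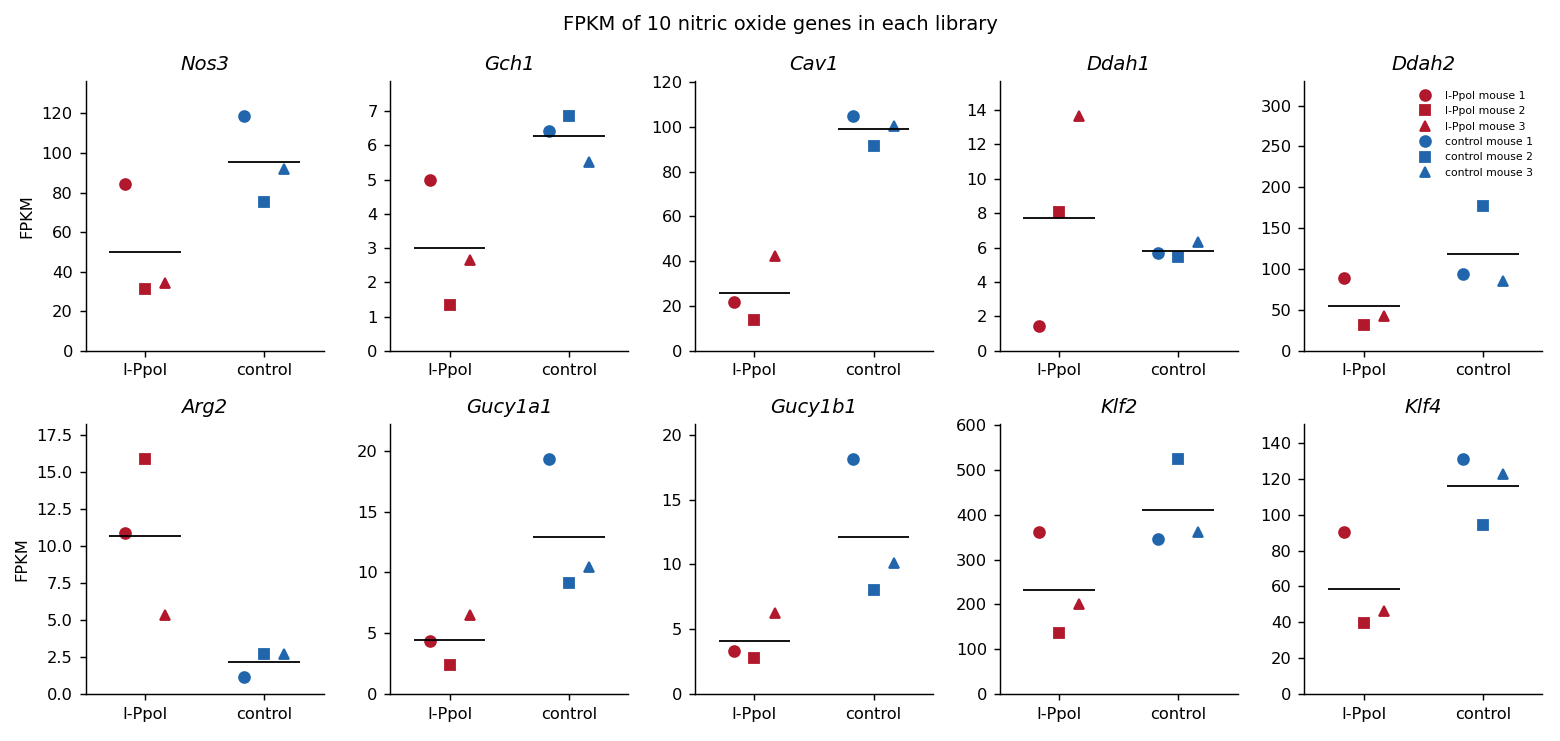
FPKM of the 10 genes in each library, with I-PpoI mice on the left and control mice on the right of each panel and a line at each group's mean. Cav1 lay at 13.5 to 42.4 FPKM in I-PpoI and 91.5 to 105 in control mice, and Arg2 was the gene with all I-PpoI values above control.

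In control mice Klf2 had the highest level of the 10, at 410.3 FPKM on average, and no control value of another gene reached its range. Ddah2, Klf4, Cav1 and Nos3 followed, at 119, 116, 98.9 and 95.3 FPKM, with overlapping ranges between neighbours in that order. Gucy1a1 and Gucy1b1 came next at 13.0 and 12.1 FPKM, then Gch1 and Ddah1 at 6.26 and 5.81 FPKM, each pair with overlapping ranges. Arg2 was lowest at 2.18 FPKM and lay below every value of Ddah1. In I-PpoI mice Klf2 was again highest, at 233 FPKM, and every other neighbouring pair in the order overlapped.

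Nos3, the endothelial synthase (ENSMUSG00000028978, GRCm38 chromosome 5, 24364810 to 24384474, plus strand), was at 84.4, 31.2 and 34.0 FPKM in I-PpoI mice 1 to 3, against 119, 75.4 and 91.9 FPKM in control mice 1 to 3. I-PpoI mice 2 and 3 lay below every control, while I-PpoI mouse 1 lay within the control range, so the groups overlapped. Nos3 averaged 49.9 ± 29.9 FPKM in I-PpoI mice and 95.3 ± 21.8 FPKM in control mice (SD, n = 3 each). Its log2 fold change, I-PpoI over control, was -1.05 (SE 0.47, limma adjusted p = 0.138) as deposited and -0.21 (SE 0.40, adjusted p = 0.764) scaled. With I-PpoI mouse 3 as the only I-PpoI library it was -1.44 as deposited and -0.72 scaled. The values rest on 559, 108 and 1873 fragments in I-PpoI mice and 4384 to 7918 in controls.

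On the other strand of Nos3 lie 2 annotated genes that share exon bases with it. The antisense gene model Gm15587 (24366192 to 24383614, minus strand) lies within the span of Nos3 and shares 1040 of its 3759 exon bases with Nos3 exons. Atg9b, which encodes an autophagy protein (24384181 to 24392143, minus strand), meets Nos3 tail to tail and shares 294 exon bases with it. A coding stretch of 60 bases that is exon of both Nos3 and Gm15587 (GRCm38 chr5:24367481-24367540, from the GENCODE transcripts) is shown on each strand, since only the strand tells from which of the genes a fragment of it came.
Nos3: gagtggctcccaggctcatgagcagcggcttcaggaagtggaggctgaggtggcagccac
Gm15587: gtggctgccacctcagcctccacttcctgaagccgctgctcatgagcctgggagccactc

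Gm15587 was at 557, 229 and 1.60 FPKM in I-PpoI mice 1 to 3, against 5.61, 3.27 and 5.26 FPKM in control mice 1 to 3. Atg9b was at 62.7, 27.2 and 0.532 FPKM in I-PpoI mice, against 1.54, 2.07 and 1.27 FPKM in control mice. I-PpoI mice 1 and 2 thus stood far above every control for each opposite-strand gene, while I-PpoI mouse 3 stood below every control. Of the fragments assigned to Nos3, Gm15587 or Atg9b, Nos3 held 13.0% (12.0 to 14.0%, a 95% exact Clopper-Pearson interval) in the first I-PpoI library and 11.8% (9.74 to 14.0%) in the second. It held 94.5% in I-PpoI mouse 3 (93.5 to 95.5%) and 93.8 to 94.7% in the controls, so mouse 3 lay within the control range for how the locus was split. These intervals cover counting error only. Within the locus the ratio of Atg9b to Nos3 FPKM was 0.744 and 0.873 for I-PpoI mice 1 and 2, 0.0157 for mouse 3, and 0.0130 to 0.0275 in controls.

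**Figure D2:**
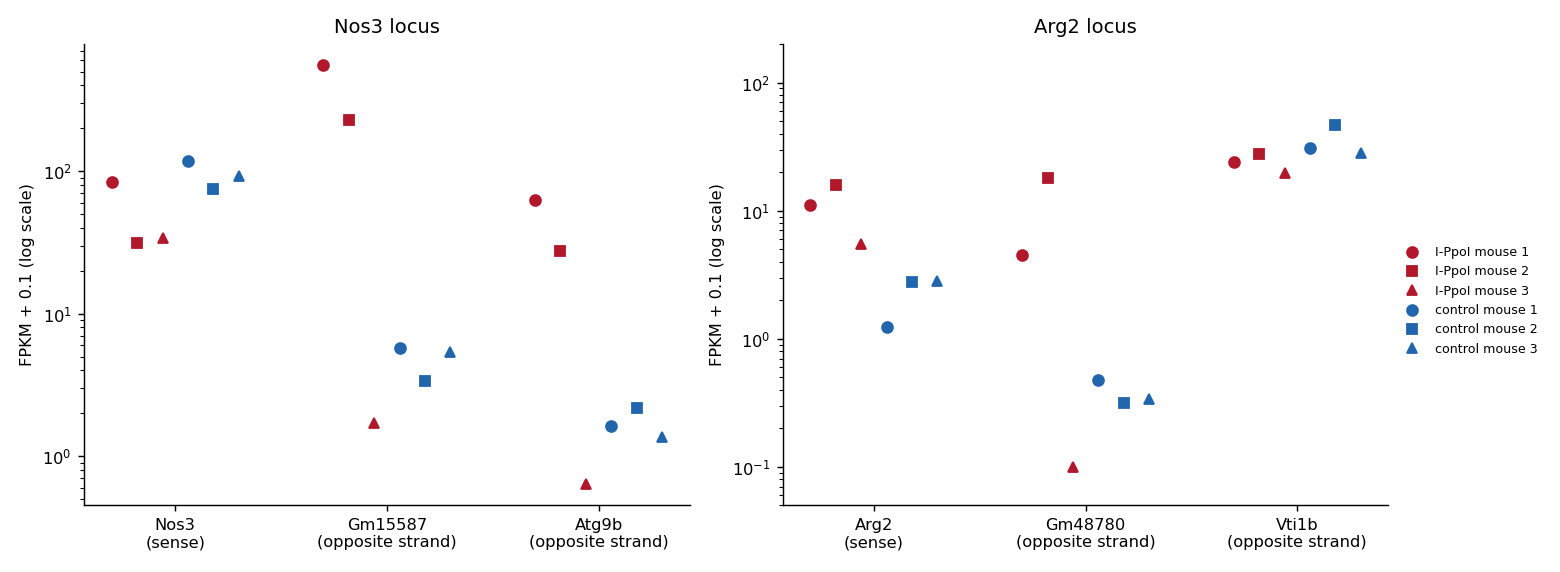
FPKM + 0.1 on a log axis of Nos3 and Arg2 and of the annotated genes on their opposite strand, in each library. Gm15587 and Atg9b stood at 557 and 62.7 FPKM for I-PpoI mouse 1, at 229 and 27.2 for mouse 2, and at 1.60 and 0.532 for mouse 3, near the controls.

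Gch1, the first enzyme of tetrahydrobiopterin synthesis (ENSMUSG00000037580, chromosome 14, 47153895 to 47189413, minus strand), was at 4.99, 1.34 and 2.65 FPKM in I-PpoI mice 1 to 3, against 6.42, 6.85 and 5.52 FPKM in control mice. All I-PpoI values lay below all control values as deposited, and the groups overlapped after scaling. Fitted log2 fold changes were -0.96 (SE 0.42, limma adjusted p = 0.135) as deposited and -0.31 (SE 0.34, adjusted p = 0.600) scaled, and -0.99 and -0.41 with I-PpoI mouse 3 as the only I-PpoI library. Only 7 fragments lay behind the value of I-PpoI mouse 2, which gives an exact Poisson interval of 0.537 to 2.75 FPKM. The ratio of Nos3 to Gch1 FPKM was 16.9, 23.3 and 12.8 in I-PpoI mice and 18.5, 11.0 and 16.6 in control mice, with overlapping groups. An opposite-strand pseudogene in an intron of Gch1, Gm49134, had 6, 2 and 0 fragments in I-PpoI mice and 0 in every control.

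Cav1, the caveolar coat protein that inhibits Nos3 (ENSMUSG00000007655, chromosome 6, 17306335 to 17341452, plus strand), was the gene of the 10 with the largest lower fold change. It was at 21.7, 13.5 and 42.4 FPKM in I-PpoI mice 1 to 3, against 105, 91.5 and 100.3 FPKM in control mice. The highest I-PpoI value, that of mouse 3, was under the lowest control value, and the order held after scaling, at 25.4, 23.1 and 51.4 against 72.7, 69.3 and 78.7 scaled FPKM. It averaged 25.9 ± 14.9 FPKM in I-PpoI mice and 98.9 ± 6.75 FPKM in control mice (SD, n = 3 each). The log2 fold change was -2.04 (SE 0.45, limma adjusted p = 0.132) as deposited and -1.21 (SE 0.37, adjusted p = 0.318) scaled, with a 95% interval of -2.12 to -0.30 for the scaled value. With I-PpoI mouse 3 as the only I-PpoI library it was -1.20 as deposited and -0.48 scaled. Without I-PpoI mouse 3 the gene passed the threshold (log2 fold change -2.46, adjusted p = 0.000892), in a fit that called 56.4% of all genes. No exon of an opposite-strand gene lies near it. The antisense model Gm15581, which spans the gene, has its nearest exon 44014 bases away and had at most 2 fragments in any library. This bears only on fragments gained from the other strand. Cav1 was lowest in I-PpoI mice 1 and 2, whose libraries held 14.7% and 10.02% of fragments in antisense gene models. Whether fragments were lost there from Cav1 or from the other genes was not tested. Nos3 per Cav1 FPKM was 3.88 for I-PpoI mouse 1, 2.31 for mouse 2 and 0.802 for mouse 3, against 0.824 to 1.13 in controls.

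Ddah1 and Ddah2 remove methylarginines, the natural inhibitors of the synthase. Ddah1 (ENSMUSG00000028194, chromosome 3, 145758675 to 145894277, plus strand) was at 1.41, 8.09 and 13.6 FPKM in I-PpoI mice 1 to 3, against 5.66, 5.48 and 6.31 FPKM in control mice. I-PpoI mouse 1 lay below every control and I-PpoI mice 2 and 3 above, so that the fold change of 0.01 (SE 0.67, limma adjusted p = 0.992) averages values on either side of the controls. Its sign depended on the settings: it was -0.0924 with a pseudocount of 0.1 FPKM, 0.73 (SE 0.75, adjusted p = 0.572) scaled, -0.54 without I-PpoI mouse 3, -0.20 without I-PpoI mouse 2 and 0.76 without I-PpoI mouse 1. For I-PpoI mouse 3 alone, which lay above every control, it was 1.11 (SE 0.12, adjusted p = 0.127) as deposited and 1.77 (SE 0.16, adjusted p = 0.267) scaled. The value of I-PpoI mouse 1 rests on 9 fragments, with an exact Poisson interval of 0.644 to 2.67 FPKM, which lies below the controls, and that of mouse 3 on 724 fragments.

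Ddah1 is also made by tubule cells, so proximal tubule markers are given beside it. Their summed FPKM over 15 genes was 323, 808 and 1844 in I-PpoI mice 1, 2 and 3, against 818, 1548 and 939 in control mice, with Slc22a8 at 0 in I-PpoI mouse 1 and Cyp2e1 at 0 in I-PpoI mouse 2. Aqp1, which descending vasa recta endothelium also makes, and Kap, an androgen-dependent gene, made up much of that sum. Over the other 13 genes, a list trimmed after the values were seen, it was 142, 632 and 845 in I-PpoI mice and 278, 346 and 171 in control mice. On the trimmed list I-PpoI mice 2 and 3, which had the highest Ddah1, had the highest sums. I-PpoI mouse 1 had the lowest of each. Among the control mice, mouse 3 had the highest Ddah1 and the lowest of these sums. On the full list control mouse 2 had a higher sum than I-PpoI mouse 2, with lower Ddah1. Per 1000 FPKM of the 15 markers, Ddah1 was 4.36, 10.01 and 7.40 FPKM in I-PpoI mice, against 6.91, 3.54 and 6.72 in control mice. Over the 13 markers it was 9.91, 12.8 and 16.1 FPKM in I-PpoI mice, against 20.3, 15.8 and 36.9 FPKM in control mice. Gene by gene, I-PpoI mouse 1 was above every control for 1 of the 15 markers and below every control for 14, I-PpoI mouse 2 was above for 10 and below for 5, and I-PpoI mouse 3 was above for 11 and below for 2. The part of tubule RNA in the Ddah1 values was not tested.

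**Figure D3:**
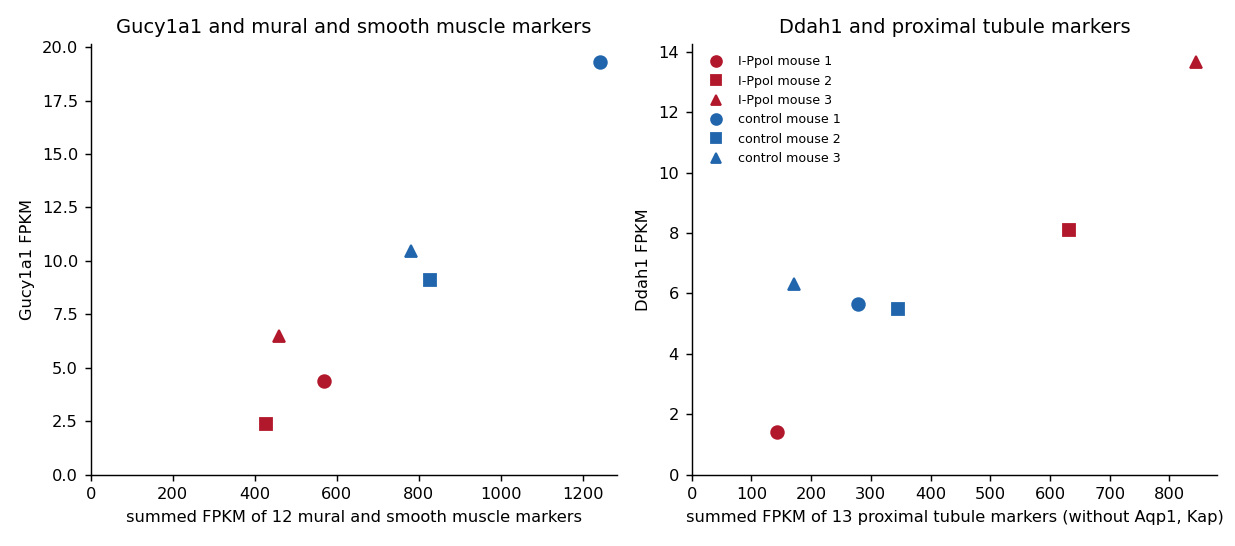
Gucy1a1 FPKM against the summed FPKM of 12 mural and smooth muscle markers, and Ddah1 FPKM against that of 13 proximal tubule markers (the list without Aqp1 and Kap), with 1 point per library. I-PpoI mice had mural sums of 428 to 569 and Gucy1a1 levels of 2.40 to 6.50 FPKM, each below the controls, and I-PpoI mouse 3 had the highest tubule sum and the highest Ddah1.

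Ddah2 (ENSMUSG00000007039, chromosome 17, 35059035 to 35062095, plus strand) was at 89.2, 31.5 and 42.2 FPKM in I-PpoI mice 1 to 3, against 94.0, 177 and 85.3 FPKM in control mice. I-PpoI mouse 1 lay between the controls and the other I-PpoI mice below them. For Ddah2 the log2 fold change was -1.18 (SE 0.51, limma adjusted p = 0.136) as deposited and -0.34 (SE 0.45, adjusted p = 0.660) scaled, and -1.39 and -0.68 with I-PpoI mouse 3 as the only I-PpoI library. The ratio of Ddah2 to Ddah1 FPKM was 63.3, 3.89 and 3.09 in I-PpoI mice and 16.6, 32.3 and 13.5 in control mice. The nearest gene on the other strand, Mpig6b, lies tail to tail with Ddah2 at 598 bases and was under 1 FPKM in every library.

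Arg2, the mitochondrial arginase (ENSMUSG00000021125, chromosome 12, 79130777 to 79156301, plus strand), was the only one of the 10 genes whose I-PpoI values all lay above the controls. It was at 10.9, 15.9 and 5.36 FPKM in I-PpoI mice 1 to 3, against 1.13, 2.69 and 2.73 FPKM in control mice. These are low counts, of 25, 19 and 102 fragments in I-PpoI mice and 26, 54 and 66 in control mice. It averaged 10.7 ± 5.26 FPKM in I-PpoI mice and 2.18 ± 0.913 FPKM in control mice (SD, n = 3 each). For Arg2 the log2 fold change was 1.82 (SE 0.47, limma adjusted p = 0.132) as deposited and 2.47 (SE 0.55, adjusted p = 0.318) scaled. It was 1.05 as deposited and 1.63 scaled with I-PpoI mouse 3 as the only I-PpoI library. Without I-PpoI mouse 3 it passed the threshold, at 2.20 (adjusted p = 0.00317), in a fit that called 56.4% of all genes.

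Arg2, like Nos3, shares exon bases with genes on the other strand. Vti1b, which encodes a vesicle SNARE protein, shares 285 bases at its tail, and the antisense model Gm48780 shares 116. Vti1b was at 24.0, 27.4 and 19.6 FPKM in I-PpoI mice, against 30.7, 46.8 and 28.2 FPKM in control mice, and was above Arg2 in every library. Gm48780 reached 4.38 FPKM and 18.0 FPKM for I-PpoI mice 1 and 2, was listed at 0 for mouse 3, and was at 0.214 to 0.372 FPKM in controls. Arg2 held 26.6% (18.0 to 36.7%), 26.8% (16.9 to 38.6%) and 19.5% (16.2 to 23.1%) of the fragments of the locus in I-PpoI mice 1, 2 and 3, against 3.13%, 4.83% and 7.85% in control mice (95% exact Clopper-Pearson intervals). For this share I-PpoI mouse 3 also lay above the controls. The other fragments of the locus were mostly those of Vti1b, at 62, 37 and 422 in I-PpoI mice and 771 to 1061 in control mice. The share thus mainly sets Arg2 against Vti1b. Kidney tubules make Arg2 too: per 1000 FPKM of the 15 summed tubule markers it was 33.8, 19.6 and 2.91 FPKM in I-PpoI mice, against 1.38, 1.74 and 2.90 FPKM in control mice, so on that scale I-PpoI mouse 3 was level with the highest control. Over the 13 markers without Aqp1 and Kap it was 76.8, 25.1 and 6.34 FPKM in I-PpoI mice, against 4.05, 7.77 and 16.0 FPKM in control mice, so that I-PpoI mice 1 and 2 lay above the controls and mouse 3 among them. The part of opposite-strand fragments and of tubule RNA in the Arg2 values was not tested. The ratio of Nos3 to Arg2 FPKM was 7.73, 1.96 and 6.35 in I-PpoI mice, against 105, 28.1 and 33.7 in control mice.

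Gucy1a1 and Gucy1b1, the alpha and beta subunits of the nitric oxide receptor, are neighbours on the minus strand of chromosome 3 (82092427 to 82145789, ENSMUSG00000033910, and 82032006 to 82074689, ENSMUSG00000028005), 17737 bases apart. No opposite-strand gene lies within 5 kb of either. Gucy1a1 was at 4.38, 2.40 and 6.50 FPKM in I-PpoI mice 1 to 3, against 19.3, 9.10 and 10.5 FPKM in control mice. Gucy1b1 was at 3.33, 2.74 and 6.23 FPKM in I-PpoI mice, against 18.1, 8.05 and 10.1 FPKM in control mice. The subunits kept close to each other in every library, with a ratio of alpha to beta of 1.32, 0.877 and 1.04 in I-PpoI mice and 1.07, 1.13 and 1.04 in control mice. All I-PpoI values were below all control values for each gene as deposited, and the groups overlapped after scaling.

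The log2 fold changes were -1.37 (SE 0.45) for Gucy1a1 and -1.35 (SE 0.44) for Gucy1b1, each with limma adjusted p = 0.132. Scaled, they were -0.64 (SE 0.37, adjusted p = 0.360) and -0.62 (SE 0.37, adjusted p = 0.380). With I-PpoI mouse 3 as the only I-PpoI library, they were -0.83 and -0.78 as deposited and -0.17 and -0.13 scaled. Without I-PpoI mouse 3 each passed the threshold, at -1.64 (adjusted p = 0.0147) and -1.63 (adjusted p = 0.0120), in a fit that called 56.4% of all genes. In I-PpoI mouse 2 the pair rests on 14 and 9 fragments. The summed level of 12 mural and smooth muscle markers, cells in which this cyclase is abundant, was 569, 428 and 459 FPKM in I-PpoI mice, against 1242, 827 and 782 FPKM in control mice, with Kcnj8 and Abcc9 at 0 in I-PpoI mouse 1. Gene by gene, Acta2, Rgs5, Mcam, Pdgfrb and Abcc9 had all I-PpoI values below control, as had 45.1% of all genes tested. The groups overlapped for Tagln, Myh11, Cnn1, Cspg4, Des, Notch3 and Kcnj8. Per 1000 FPKM of the 12 summed mural markers, Gucy1a1 was at 7.70, 5.60 and 14.2 FPKM in I-PpoI mice, against 15.5, 11.0 and 13.4 FPKM in control mice, so I-PpoI mouse 3 lay among the controls and I-PpoI mice 1 and 2 below them. The part of mural cells in these values was not tested.

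The promoters of this pair are shown because the ratio of the subunits stayed at 0.877 to 1.32. Its extremes, in I-PpoI mice 2 and 1, rest on few fragments: 14 and 9 in mouse 2, and 49 and 21 in mouse 1. The part of the promoters in this ratio was not tested. Each is the 250 bases before the RefSeq gene start (GRCm38.p6, minus strand, 5′ to 3′), at chr3:82145651-82145900 for the first of the RefSeq starts of Gucy1a1 and chr3:82074712-82074961 for Gucy1b1. The Gucy1a1 window lies partly inside the gene span of the deposited table, which ends at 82145789, so the RefSeq start and that span differ. Capitals mark GGGCGG (the GC box) and CCAAT or its reverse complement.
Gucy1a1: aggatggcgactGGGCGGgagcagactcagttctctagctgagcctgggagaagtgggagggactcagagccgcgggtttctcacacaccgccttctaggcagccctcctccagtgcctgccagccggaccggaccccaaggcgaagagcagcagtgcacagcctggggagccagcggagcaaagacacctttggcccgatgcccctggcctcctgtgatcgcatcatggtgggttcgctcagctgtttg
Gucy1b1: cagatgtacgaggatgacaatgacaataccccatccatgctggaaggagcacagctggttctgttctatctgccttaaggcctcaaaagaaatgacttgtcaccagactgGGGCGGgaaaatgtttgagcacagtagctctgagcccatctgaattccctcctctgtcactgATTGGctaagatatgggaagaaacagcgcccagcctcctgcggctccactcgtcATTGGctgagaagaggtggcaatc

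The beta subunit window holds CCAAT on the other strand at 78 and 24 bases before the start, while the alpha subunit window holds none. CCAAT was in 33.8% and GGGCGG in 33.0% of 32536 such windows on either strand. Of the 10 nitric oxide genes, the RefSeq table matched 8 by symbol, not Nos3 or Arg2, and 7 of these 8 held GGGCGG in a window. Only Gch1 and Gucy1b1 of the 8 held CCAAT. The matches describe the letters of these windows.

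Klf2 (ENSMUSG00000055148, chromosome 8, 72319033 to 72321656, plus strand), the flow-induced factor with the highest level of the 10 genes, was at 363, 136 and 199.9 FPKM in I-PpoI mice 1 to 3, against 346, 524 and 362 FPKM in control mice. I-PpoI mouse 1 lay within the control range and I-PpoI mice 2 and 3 below it. For Klf2 the log2 fold change was -0.91 (SE 0.45, limma adjusted p = 0.154) as deposited and -0.06 (SE 0.37, adjusted p = 0.931) scaled, with a 95% interval of -0.96 to 0.84 for the scaled value. Klf4 (ENSMUSG00000003032, chromosome 4, 55527143 to 55532466, minus strand), its close relative, was at 90.4, 39.5 and 46.3 FPKM in I-PpoI mice, against 131, 94.5 and 123 FPKM in control mice. Its I-PpoI values all lay below the controls as deposited, with mouse 1 close to the lowest control, and overlapped them after scaling. For Klf4 the log2 fold change was -1.05 (SE 0.41, limma adjusted p = 0.135) as deposited and -0.21 (SE 0.33, adjusted p = 0.716) scaled. With I-PpoI mouse 3 as the only I-PpoI library, Klf2 was at -1.01 as deposited and -0.28 scaled, and Klf4 at -1.29 and -0.57. No opposite-strand gene lies within 5 kb of either gene. Scaled over 4285 genes with no such neighbour, Klf2 was at 0.23 (SE 0.40) and Klf4 at 0.0802 (SE 0.39), on the other side of 0. Klf2 was 3.43 to 4.31 times Klf4 in I-PpoI mice and 2.64 to 5.54 times Klf4 in control mice.

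The Klf2 promoter window (GRCm38.p6 chr8:72318812-72319061, plus strand) is printed because Klf2 had the highest level of the 10 genes. It is set by the RefSeq start and runs past the start of the deposited gene span, at 72319033. Capitals mark GGGCGG.
Klf2: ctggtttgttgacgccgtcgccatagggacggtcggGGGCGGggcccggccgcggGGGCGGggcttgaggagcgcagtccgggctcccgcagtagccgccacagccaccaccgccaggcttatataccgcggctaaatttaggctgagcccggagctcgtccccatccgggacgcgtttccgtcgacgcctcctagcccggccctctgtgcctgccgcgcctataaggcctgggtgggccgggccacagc

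The motif began 214 and 195 bases before the start. The 250 bases were 71.2% G or C, against a median of 52.4% over all windows, and the Klf4 window was 74.0% G or C with 4 matches on either strand.

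**Figure D4:**
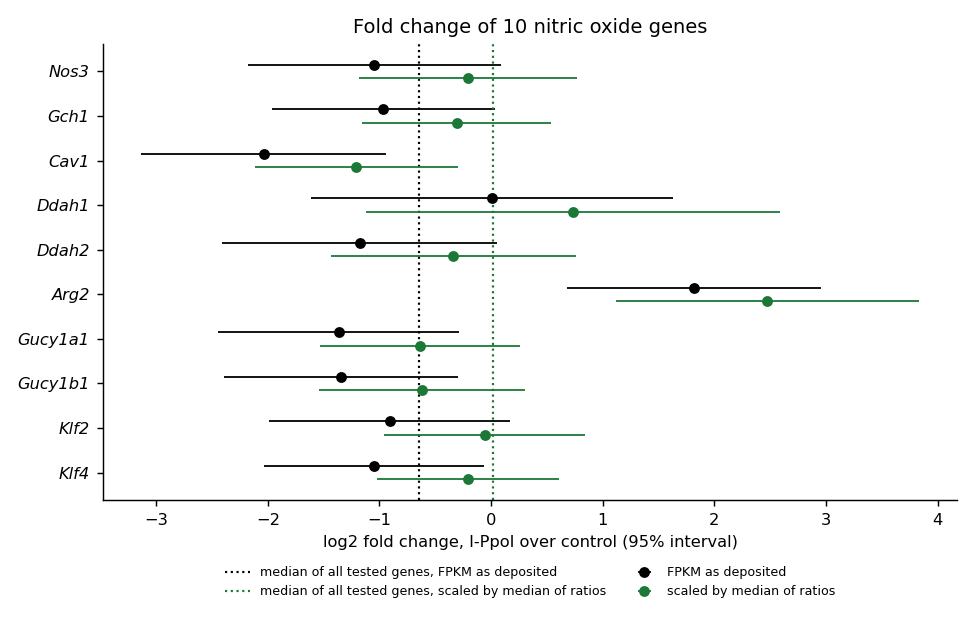
Log2 fold changes of the 10 genes, I-PpoI over control, with 95% intervals, from FPKM as deposited and after scaling by median of ratios; dotted lines give the median over all 14962 genes tested. Cav1 lies farthest below the median of all genes on either scale (-2.04 and -1.21) and Arg2 farthest above it (1.82 and 2.47).

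Levels were then set against endothelial RNA, as log2(FPKM + 1) minus the median of the 20 endothelial genes in the same library. On this scale 3 of the 10 genes had all I-PpoI values above control, namely Arg2, Klf2 and Gch1, against 50.1% of all genes tested, and none had all values below, against 0.0869%. Arg2 was at -2.94, -0.81 and -3.52 in I-PpoI mice, against -6.30, -5.73 and -5.41 in control mice, a difference of 3.39. Klf2 was at 1.99, 2.21 and 1.46 in I-PpoI mice, against 1.05, 1.42 and 1.19 in control mice, a difference of 0.67, and Gch1 differed by 0.61. For each of these 3 an exact two-sided permutation test over the 6 libraries gave p = 0.10, the smallest that 3 against 3 allows, or 0.333 adjusted over the 10 genes, so that no gene could pass. Nos3 was at -0.10, 0.12 and -1.06 in I-PpoI mice, against -0.48, -1.36 and -0.77 in control mice, a difference of 0.53 (exact p = 0.30) with overlapping groups, and Cav1 differed by -0.46 (exact p = 0.30). The other 5 differences were 0.21 for Gucy1a1, 0.23 for Gucy1b1, 0.40 for Ddah2, 0.52 for Klf4 and 1.58 for Ddah1, with exact p of 0.20 to 0.80. Without control mouse 2 the values were -0.0798 for Gucy1a1 and -0.0903 for Gucy1b1, on the other side of 0, and without I-PpoI mouse 2 Gucy1b1 was at -0.067. The other values also moved with single libraries: Cav1 was at -0.0910 without I-PpoI mouse 1 and -0.72 without I-PpoI mouse 3, and Ddah1 at 2.66 without I-PpoI mouse 1 and 0.89 without I-PpoI mouse 2. Without I-PpoI mouse 3 Nos3 was at 0.88, Ddah2 at 0.67 and Klf4 at 0.81, and without I-PpoI mouse 2 they were at 0.29, 0.22 and 0.27. The endothelial median itself was 6.51, 4.89 and 6.19 in I-PpoI and 7.31 to 7.62 in control libraries, so each I-PpoI value is set against a lower level than any control value.

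**Figure D5:**
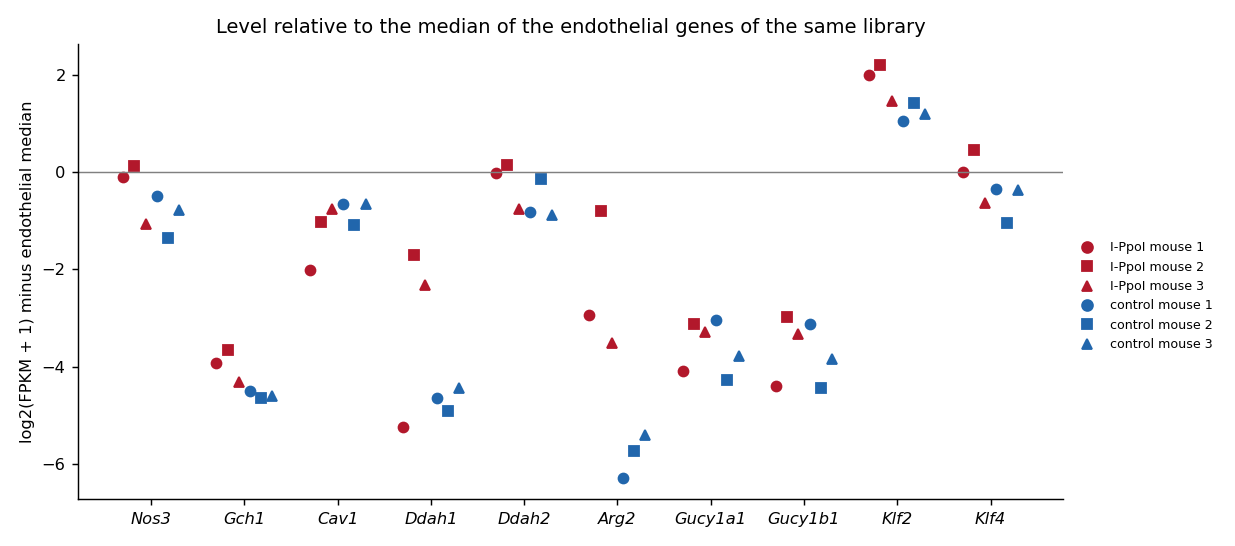
Log2(FPKM + 1) of the 10 genes minus the median of the endothelial genes of the same library, where 0 is the level of the median endothelial gene. Klf2 lies above 0 in every library, and the Arg2 values of I-PpoI mice, at -3.52 to -0.81, lie above those of control mice, at -6.30 to -5.41.

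The wider pathway was described with a list of synthase partners, biopterin, arginine and methylarginine enzymes, cyclic GMP effectors and flow-signalling genes. Of 51 such genes in the file, 45 reached a mean of 1 FPKM and 0 of these passed by limma. At an unadjusted p under 0.05 as deposited, 19 were lower and 0 higher, against 32.2% and 4.23% of all genes. In limma-voom 2 were lower and 2 higher, against 1.04% and 2.5% of all genes, with 0 past the threshold. Without I-PpoI mouse 3, 19 passed, all lower, where 56.4% of all genes did. As deposited 28 of the 45 had all I-PpoI values below control, against 45.1% of all genes, with a median log2 fold change of -0.92, against -0.65. Scaled, 7 were below and 1 above, against 9.76% and 7.65% of all genes, with a median of -0.16, against 0.02. The other synthases were low, with Nos2, the inducible form, at 1.34 to 3.03 FPKM in I-PpoI and 4.09 to 5.51 FPKM in control mice, and Nos1, the neuronal form, at 0.428 to 0.783 and 0.758 to 2.11 FPKM. The receptor subunit Gucy1a2 was at 0.0938 to 0.869 FPKM in I-PpoI and 0.256 to 2.09 FPKM in control mice.

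Among the pathway genes of smallest p whose scaled groups did not overlap were Cav2, Calm2, Thbd, Pde5a and Cavin2. Cav2, the partner of Cav1 in caveolae, was at 10.3, 5.37 and 28.8 FPKM in I-PpoI mice, against 66.6, 61.9 and 69.9 FPKM in control mice. Its scaled log2 fold change was -1.57 (SE 0.51, limma adjusted p = 0.318), beside -1.21 for Cav1, and I-PpoI mouse 3 was again the highest of its group. Cavin2, a caveolar coat protein, was at 78.8, 36.7 and 75.6 FPKM in I-PpoI mice, against 136, 137 and 149 FPKM in control mice (scaled -0.37, SE 0.28, adjusted p = 0.470). Thbd encodes the anticoagulant thrombomodulin, which Klf2 induces in endothelium. It was at 108, 40.4 and 111 FPKM in I-PpoI mice, against 299, 205 and 264 FPKM in control mice (scaled -0.83, SE 0.35, adjusted p = 0.318), while Klf2 itself was at -0.06 on that scale.

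Calmodulin activates the synthase when calcium rises, and its message comes from several genes with near-identical protein, so that counts of related copies are uncertain. Calm2 was at 75.2, 41.5 and 104 FPKM in I-PpoI mice, against 215, 258 and 180.0 FPKM in control mice (scaled -0.78, SE 0.32, limma adjusted p = 0.318). Calm3 was at 51.9 to 82.3 FPKM in I-PpoI and 80.1 to 102.5 FPKM in control mice, with overlapping groups. Pde5a, which degrades cyclic GMP, was at 1.14, 0.850 and 1.53 FPKM in I-PpoI mice, against 4.85, 2.88 and 3.34 FPKM in control mice (scaled -0.54, SE 0.26, adjusted p = 0.318). Of these genes, Calm2 and Thbd have no opposite-strand gene within 5 kb of an exon.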

How the data were processed

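Per the labels' protocols, RNA of CD31-sorted kidney cells was read from both ends over 100 cycles. The authors deposited FPKM per gene. DESeq2 and the builds mm10 and GRCm38 are named, per the submitters' processing notes; the aligner, the counter and its strandedness were not given in the sources used here. The 10 genes, gene lists and tests were chosen with earlier results of these data known.

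Exon lengths came from GENCODE M21, which held 55227 of the 55487 gene IDs. FPKM times length gave whole fragments (within 0.05) for 98.5 to 98.6% of values under 1000 fragments. Because the unit is FPKM, limma was fitted to log2(FPKM + 1) with Benjamini-Hochberg adjustment at 0.05, and limma-voom on recovered fragments was an alternative. Fold changes on that scale understate the change of low genes. The labels describe separate mice. Coordinates of genes come from the deposited table. Neighbours were genes annotated on the opposite strand that overlap a gene or lie within 5 kb. Named genes of the wider list were the 8 of smallest p in the scaled fit with groups that did not overlap, since fewer than 5 passed, and some of these are not reported here; marker lists are given as sums. Nos1, Nos2, Gucy1a2 and Calm3 lie outside that rule and were named after their values were seen. A gene listed at 0 was left as it is.

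To see whether same-numbered libraries pair, their deviations from the group means were correlated, giving 0.09, 0.06 and -0.02 over all genes tested, and 0.19, 0.15 and 0.13 over genes without an opposite-strand neighbour, scaled. No label ties a number to a litter or day. Simulated data served to test the limma fit. Tools were limma 3.58.1 in R 4.3.3, scipy 1.17.1, pandas 2.3.3, numpy 2.4.6 and matplotlib 3.10.9 in python 3.11.15.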

Additional observations from a re-analysis of the deposited data

Results flagged for a closer look

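I-PpoI mouse 1 had 14.7% and I-PpoI mouse 2 had 10.02% of fragments in antisense gene models, above the 0.197 to 0.225% of the controls. Among those that share exon bases with the nitric oxide genes, Gm15587, opposite Nos3, was at 557 FPKM for I-PpoI mouse 1 and 229 FPKM for mouse 2, above at most 5.61 FPKM in controls. Gm48780, opposite Arg2, was at 4.38 FPKM for I-PpoI mouse 1 and 18.0 FPKM for mouse 2, above at most 0.372 FPKM in controls. In I-PpoI mouse 3 the values were 0.119%, 1.60 FPKM and a listing at 0. Groups of 3 libraries were not screened for single outlying libraries.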

How the results depend on the processing

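The count of 0 genes past the threshold, for all genes, the 10 nitric oxide genes and the wider list, held for the other pseudocounts, filters, scaling, limma-voom and genes without an opposite-strand neighbour. With I-PpoI mouse 3 as the only I-PpoI library and scaling, 1 gene of all passed. Leaving out 1 library gave 0 to 8438 genes, 0 to 4 nitric oxide genes and 0 to 19 of the wider list, where each call above 0 arose without I-PpoI mouse 3. The replicate block left 0 genes in each count, as deposited, scaled and without opposite-strand neighbours; the last fit, and the one judging neighbours by exon distance, were chosen after seeing the data.

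Of the 20 fold changes and levels relative to endothelium of the 10 genes, 15 kept their sign under each alternative that gave them a value. Nos3, Ddah2, Gch1 and Arg2 had no fold change among genes without an opposite-strand neighbour, Cav1 had one there by exon distance alone, and Gch1 had none at a mean of at least 5 FPKM. Ddah1 was at -0.0924 and -0.0373 with pseudocounts of 0.1 and 0.5 FPKM, and at -0.54 to 0.76 with 1 library left out. Over genes without an opposite-strand neighbour, Klf2 was at 0.23 and Klf4 at 0.0802, the same with the replicate block, and judged by exon distance at 0.23 and 0.0773. Relative to Cdh5 alone, Gucy1a1 differed by -0.0791 and Gucy1b1 by -0.0592; with 1 library left out they differed by -0.0798 to 0.54 and -0.0903 to 0.64 relative to the endothelial list. The cause was not tested. At 1590957 and 834149 fragments in I-PpoI mice 1 and 2, Gch1, Ddah1, Arg2, Gucy1a1 and Gucy1b1 rest on 7 to 50 fragments each there.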
